A study of Mus musculus with 2 samples.

Results

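Thalamic relay neurons with Prkcd and Adgrf5 were the nuclei that carried at least 1 UMI (unique molecular identifier, 1 counted RNA molecule) of the glutamate transporter genes Slc17a6 or Slc17a7, none of the GABA synthesis genes Gad1 and Gad2, at least 1 UMI of Prkcd and at least 2 UMIs summed over Adgrf5, Abhd12b and Zfp385c. This sum also had to exceed the sum over C6, Tspear and Tll1 and the sum over Adamts9, Crybg1 and Tspan11. These other sums were used to pick out 2 neighbouring sets of glutamatergic nuclei. Of 38150 nuclei kept, 2374 met the rule, and they made up part of 18231 glutamatergic nuclei, those with Slc17a6 or Slc17a7 and without Gad1 and Gad2. The rule reads the same counts that are described here, so the members were chosen by these UMI counts, and the levels of the rule's genes in them are a description only.

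The nuclei came from the thalamus of female C57BL/6J mice aged 3 months. Sham operation and cortical ablation injury, in which sensory and motor cortex is cut away on 1 side, were each represented by 1 single-nucleus library pooled from 4 mice, collected 21 days after surgery. With 1 library a group, sham and injury values could not be set against a spread between replicates, and no difference was tested. Intervals below are exact 95% intervals that cover counting error only.

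Relay neurons of the thalamus are glutamatergic projection neurons that pass sensory, motor and other signals to the cortex, each nucleus to its own areas, and where the members project was not measured. T-type calcium channels and HCN channels let them switch between tonic and burst firing. The transcription factors Tcf7l2 and Lef1, which act with beta-catenin in Wnt signalling, are known markers of these neurons, and Prkcd encodes protein kinase C delta, a kinase used to mark sensory thalamic nuclei.

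The sham library gave 1166 members and the injury library 1208. Median depth was 13260 UMIs per member in sham (range 2060 to 48825) and 14013 in injury (range 2112 to 53382), against 8713 and 8885 in the other glutamatergic nuclei. Summed over members, the libraries held 16628814 and 18433643 UMIs. The mitochondrial share of these sums was 0.0193% in sham and 0.0147% in injury. The libraries shared 101 cell barcodes, of which 1 was a member in both.

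Because Lef1 and Tcf7l2 bind the motif CTTTGA, RefSeq promoter sequence (GRCm38.p6) was read for Prkcd, Adgrf5, Abhd12b, Zfp385c and Adarb2, and is shown for 3 of them. The windows run up to 250 bases before a start site, leaving out bases inside the annotated gene, and are shown 5′ to 3′ with the motif, or TCAAAG on the other strand, in capitals. The motif stood in 13.8% of 32851 promoter windows of 250 bases.
Prkcd, chr14:30626211-30626458, minus strand: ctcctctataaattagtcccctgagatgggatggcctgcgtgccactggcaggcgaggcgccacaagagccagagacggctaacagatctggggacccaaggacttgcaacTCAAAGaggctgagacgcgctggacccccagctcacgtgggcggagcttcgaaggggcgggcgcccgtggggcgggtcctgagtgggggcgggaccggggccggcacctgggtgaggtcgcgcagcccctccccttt
Abhd12b, chr12:70153881-70154130, plus strand: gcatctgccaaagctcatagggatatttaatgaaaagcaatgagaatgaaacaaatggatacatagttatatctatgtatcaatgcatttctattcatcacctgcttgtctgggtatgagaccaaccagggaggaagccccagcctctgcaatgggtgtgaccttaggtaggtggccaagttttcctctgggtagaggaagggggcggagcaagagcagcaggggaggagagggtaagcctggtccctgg
Adarb2, chr13:8202616-8202865, plus strand: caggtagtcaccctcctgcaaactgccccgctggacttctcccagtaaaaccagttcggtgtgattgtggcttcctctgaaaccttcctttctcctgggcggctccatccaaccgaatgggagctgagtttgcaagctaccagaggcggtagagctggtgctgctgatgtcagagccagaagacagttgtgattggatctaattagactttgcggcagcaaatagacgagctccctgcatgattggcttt
Prkcd held 1 match, on the other strand, in the window of 1 of its 2 listed starts. The windows of Abhd12b, Adarb2, Adgrf5 and Zfp385c held none, and starts inside an annotated gene were not searched. A match is a description of letters and not of binding.

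Abhd12b rather than Adgrf5 carried most of the marker sum that chose the members. Abhd12b, a predicted lipid hydrolase gene, supplied 89.2% of the UMIs of the sum in sham and 87.4% in injury, and had a UMI in 96.7% and 93.7% of members. Adgrf5, an adhesion G protein-coupled receptor gene, had a UMI in 35.2% and 38.2% of members and supplied 7.28% and 8.45% of the sum. Zfp385c, a zinc finger gene, was the scarcest of these 3 genes, with a UMI in 22.1% and 25.4% of members. Prkcd had a median of 6 UMIs per member in both libraries, with a highest value of 32 in sham and 31 in injury.

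Adarb2, a member of the adenosine deaminase family acting on RNA, was not used by the rule and was the label's remaining marker. Scaled to 1000000 UMIs in the summed counts of a library's members (CPM), it reached 4394 in sham and 4188 in injury members. The C6-Tspear neighbours, glutamatergic nuclei in which the C6, Tspear and Tll1 sum led, had 1754 and 1680 CPM of Adarb2. The Adamts9-Crybg1 neighbours lay between these values with 3042 and 3182 CPM. Unlike members, both sets of neighbours could lack Prkcd, and whether each was a single type of relay neuron was not tested. Chat, a gene of the medial habenula, had 4.65 and 8.49 CPM in C6-Tspear neighbours. Members had 0.782 and 1.19 CPM of it, and all other glutamatergic nuclei 8.06 and 13.4 CPM. Tspear, which the rule used, separated the sets little, with 79.1 and 85.9 CPM in members and 92.6 and 102 CPM in C6-Tspear neighbours. At a common depth of 5000 UMIs per nucleus, Adarb2 had a UMI in 95.8% of sham and 96.8% of injury members. Oligodendrocytes, which should lack neuronal transcripts, were mostly shallower, and 50 of 931 sham and 146 of 2089 injury nuclei reached this depth. Of these, 42.0% and 53.4% had an Adarb2 UMI. Over all oligodendrocytes, at their own depth, the shares were 19.98% and 25.2%. The source of these UMIs, background included, was not tested. Having any Adarb2 UMI was thus not limited to nuclei with transmitter genes in these libraries.

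Detection of Prkcd and Abhd12b was set by the rule and is given as a description. At 5000 UMIs, Prkcd was seen in 86.5% of sham members (interval 84.3 to 88.4) and 84.3% of injury members (82.1 to 86.3), against 100% by the rule before thinning. Oligodendrocytes gave 10.0% and 4.79% at 5000 UMIs, from the same 50 and 146 nuclei. C6-Tspear neighbours lay in between, at 40.2% and 39.8%. Abhd12b followed the same order, with 88.8% and 83.9% of members, 17.0% and 14.9% of C6-Tspear neighbours and 4.00% and 5.48% of oligodendrocytes.

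Transcription factors of thalamic identity were present at similar levels in both libraries. Lef1 stood at 897 CPM in sham and 832 in injury members, above the 358 and 324 CPM of other glutamatergic nuclei. Tcf7l2 was spread more evenly, with 676 and 709 CPM in members and 584 and 546 CPM elsewhere. Rora, an orphan nuclear receptor of sensory relay nuclei, had 3586 and 3971 CPM in members against 2246 and 2316 CPM in other glutamatergic nuclei. Neither Rora nor Tcf7l2 was limited to neurons. Nuclei with astrocyte transcripts and no transmitter genes had 3317 and 4761 CPM of Rora and 721 and 657 CPM of Tcf7l2. Of Lef1 they had 48.4 and 26.8 CPM. Gbx2, a homeobox gene of the developing thalamus, was close to absent from the sums, with 19 UMIs over all sham and 17 over all injury members. Slc17a6 had 154 and 151 CPM in members, below the 215 and 190 CPM of the rest, while Slc17a7 had 66.5 and 54.7 CPM, above 28.6 and 41.2 CPM.

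**Figure D1:**
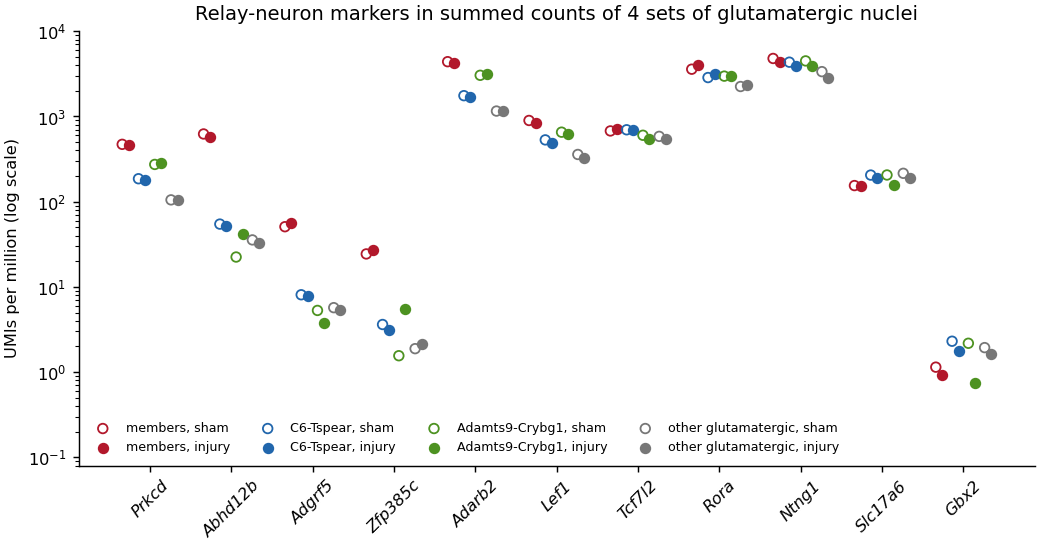
Level of relay-neuron markers in CPM on a log axis, from counts summed over members, C6-Tspear neighbours, Adamts9-Crybg1 neighbours and all other glutamatergic nuclei, with open circles for the sham and filled circles for the injury library. Abhd12b and Adgrf5, which chose the members, sit far above the other sets, Adarb2 and Lef1 less so, and Tcf7l2 lies at nearly one level in every set, from 540 to 709 CPM.

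Genes outside the rule also set the members apart from other glutamatergic nuclei, led by Ppp1r3a, Gm30564 and Fzd6 when ranked by the smaller of the ratios in the 2 libraries. Since every nucleus was placed by its counts, these differences are descriptions. Ppp1r3a, which encodes a glycogen-targeting subunit of protein phosphatase 1, had a log2 ratio of members over other glutamatergic nuclei of 2.86 in sham and 2.38 in injury. Fzd6, a Frizzled receptor of the Wnt family, stood at 2.31 and 2.51, with 521 UMIs in sham and 698 in injury members.

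Others among the 15 leading genes were Lamb1, a laminin chain, with 56.0 and 55.0 CPM against 14.2 and 14.5 CPM elsewhere, and Col4a5, a type IV collagen chain, with 7.40 and 6.84 CPM against 1.75 and 1.80 CPM. The type I keratin genes Krt12 and Krt20, neighbours on chromosome 11, both stood at 2.30 in sham, and at 1.999 and 2.09 in injury. A830036E02Rik, an antisense gene overlapping Krt12 (A830036E02Rik chr11:99416956-99425497, plus strand; Krt12 chr11:99415666-99422259, minus strand, GENCODE M21 on GRCm38), reached 2.51 and 2.25. Whether counting used the strand is not given in the sources used here, so reads of Krt12 and of A830036E02Rik cannot be told apart. Efhd1, a calcium-binding mitochondrial protein gene, Dab2, an endocytic adaptor gene, Smpx, a small muscle protein gene, and Scn4b, a sodium channel beta subunit gene, also belonged to the 15 leading genes. Their log2 ratios lay between 1.78 and 2.23 over the 2 libraries. The noncoding genes Gm30564, Gm35696 and Gm26512 completed this list together with Adarb2.

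Some of these genes were shared with the neighbours. Ppp1r3a had 15.6 and 12.7 CPM in Adamts9-Crybg1 neighbours, above the 10.9 and 7.05 CPM of members, and about 1 CPM (1.08 and 1.10) in C6-Tspear neighbours. Fzd6 had 25.8 and 29.1 CPM in Adamts9-Crybg1 neighbours, close to the 31.3 and 37.9 CPM of members. Scn4b had 6.84 and 7.95 CPM in these neighbours, against 7.16 and 5.70 CPM in members. Gm26512 had 29.2 and 22.6 CPM there, against 25.9 and 25.4 CPM in members. For Gm30564 the values were 8.40 and 4.97 CPM, against 8.54 and 8.46 CPM in members. Dab2 divided the sets the other way, with 32.5 and 41.4 CPM in members, 16.6 and 20.3 CPM in C6-Tspear neighbours and 8.09 and 11.7 CPM in Adamts9-Crybg1 neighbours.

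The genes lowest in members against other glutamatergic nuclei included markers of other diencephalic neurons. Chat, the acetylcholine synthesis gene of the medial habenula, had 13 UMIs in sham and 22 in injury members, a log2 ratio of -3.37 and -3.49 to the rest. Lmx1a, a homeobox gene of other glutamatergic nuclei of the diencephalon, had 15 and 8 UMIs. Fibcd1 had 4 UMIs in each library and Spsb4 had 4 and 5. Gm10475, Gm36560, Esm1 and 9030622O22Rik were at 5 UMIs or fewer in each library.

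The genes that varied most among members were concentrated in small groups of them. Among 4149 genes with a mean of at least 0.5 UMI per member in both libraries, the 12 with the largest variance beyond counting error included Nwd2, Il1rapl2, Kctd8, Erbb4, Dab1, Gulp1, Gm29478, Trpm3, Htr1f, Fam19a1 and Adcy2. For Nwd2, 80.7% of sham and 73.4% of injury members had no UMI, while the 5% of members richest in it, 59 sham and 61 injury nuclei, held 85.5% and 80.9% of its UMIs. Il1rapl2, an interleukin receptor accessory-like gene, had no UMI in 83.0% and 81.5% of members, and the richest 5% held 78.0% and 74.0% of its UMIs. Across the 12 genes, the richest 5% held between 56.4% and 85.5% of the UMIs. All 12 were lower in the members' sums than in other glutamatergic nuclei.

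**Figure D2:**
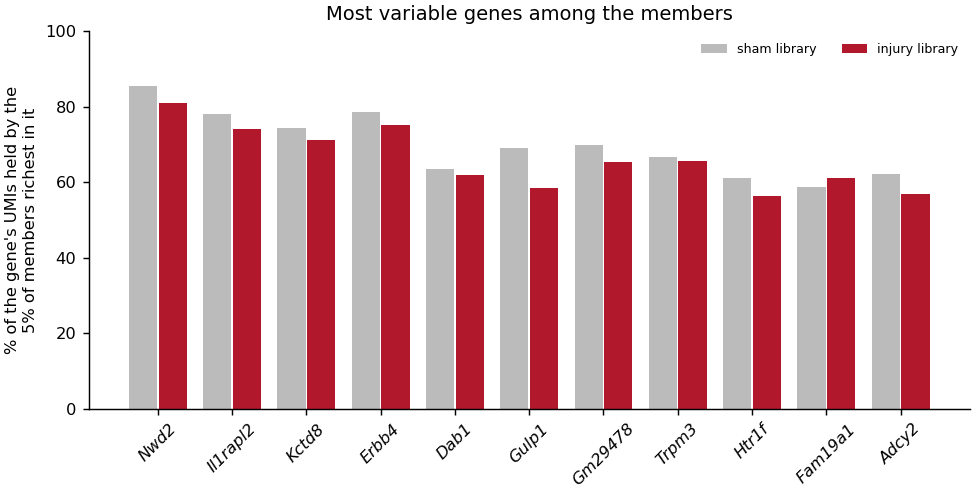
Share of each gene's UMIs (vertical axis, %) held by the 5% of members richest in it per UMI of the nucleus, for 11 of the 12 most variable genes, with grey bars for the sham and red bars for the injury library. Every bar lies above 56%, for genes chosen for their variance and members chosen for being richest.

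The richest groups of some gene pairs shared more members than those of others. Gulp1, an engulfment adaptor gene, and Htr1f, a serotonin receptor gene, shared 43 of 59 richest sham members and 35 of 61 richest injury members, or 72.9% and 57.4% of each gene's group. Nwd2 and Kctd8 shared 28 of 59 and 35 of 61, and Erbb4 and Trpm3 shared 32 of 59 and 36 of 61. Gm29478 and Htr1f shared 0 and 1 nuclei. In all, 28.9% of sham and 29.4% of injury members belonged to the richest group of at least 1 of the 12 genes, and 5.06% and 5.30% to that of 4 or more.

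Members rich in some of the variable genes were poorer in genes of the type. In the 59 sham members richest in Adcy2, Adarb2 stood at 987 CPM and Prkcd at 205 CPM, against 4589 and 486 CPM in the remaining sham members. The 61 injury members richest in Adcy2 had 1769.95 CPM of Adarb2 and 272 CPM of Prkcd, against 4327 and 472 CPM. Members richest in Il1rapl2 differed less in injury, with 3732 CPM of Adarb2 against 4216 CPM, than in sham, with 2069 against 4543 CPM. Members richest in Gulp1 were also lower in Adarb2, with 1983 CPM against 4522 CPM in sham and 1409 against 4314 CPM in injury, and in Ntng1, a netrin-G gene of thalamic axons, with 1146 and 871 CPM against 4988 and 4563 CPM. Their Prkcd stood at 446 CPM in sham and 384 CPM in injury, against 472 and 465 CPM in the remaining members. Members richest in Nwd2 had median depths of 16368 and 16899 UMIs, above the medians of all members, and whether they were 2 nuclei in 1 droplet was not tested.

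The same slope was seen at the edges of the rule. The 127 sham and 116 injury members with exactly 1 Prkcd UMI had 1397 and 1609 CPM of Adarb2, and the 1039 and 1092 members with at least 2 had 4681 and 4405 CPM. The 193 sham and 188 injury nuclei that failed only for lack of Prkcd had 458 and 593 CPM of Adarb2. Members with a marker sum of exactly 2 (96 and 137 nuclei) had 2532 and 2539 CPM of Adarb2, and nuclei just outside with a sum of 1 (134 and 148 nuclei) had 1916 and 1857 CPM. Members with 10 or more had 5153 and 5052 CPM.

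Members were a slightly smaller share of the injury library. They made up 7.12% of all kept sham nuclei (6.73 to 7.53) and 5.55% of injury nuclei (5.25 to 5.86), while the injury library also held 2089 nuclei with oligodendrocyte transcripts and no transmitter genes, against 931 in sham. Of glutamatergic nuclei, members were 13.4% in sham (12.7 to 14.2) and 12.6% in injury (11.98 to 13.33), intervals that overlap. With each nucleus thinned to 5000 UMIs, which left out 4956 sham and 7624 injury nuclei, the shares of glutamatergic nuclei were 10.1% (9.31 to 10.9) and 8.97% (8.27 to 9.71). C6-Tspear neighbours were 20.04% and 18.42% of glutamatergic nuclei, and Adamts9-Crybg1 neighbours 2.64% and 2.73%. A share depends on which nuclei were recovered from each pool, and lost neurons and more recovered cells of other types cannot be told apart.

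For sham against injury, 12394 genes outside the rule had at least 100 UMIs over the members. A log2 ratio of at least 0.5, taken as the fold for description, was passed by 276 genes higher in the injury library (2.23%) and by 605 genes lower (4.88%), with a median over all genes of -0.03. After thinning to 5000 UMIs per nucleus the split was nearer to even, with 202 higher and 238 lower of 6695 genes. The genes of the type itself differed little, with log2 ratios of -0.07 for Adarb2, -0.11 for Lef1, 0.07 for Tcf7l2 and -0.12 for Ntng1. Beside these ratios, the summed oligodendrocyte markers (10 of 10 detected in each library) stood at 76.2 CPM in sham and 106 CPM in injury members, and the 8 astrocyte markers, all detected, at 5.77 and 11.5 CPM. In oligodendrocytes and astrocytes themselves these sums were 17017 and 16359 CPM, and 2595 and 3389 CPM. Their part in the ratios below was not tested, but values in a cleared set of members, with no minimum of UMIs, are given for the 12 highest and, as a range, the 12 lowest ratios. The cleared members (708 sham, 677 injury) had fewer than 2 UMIs of each glial and vessel list, with some genes left out of the lists, among them Mbp and genes that neurons carry, such as P2ry12 and Tek, and lay outside the 10% of nuclei with most UMIs. Members with UMIs of these genes could thus stay, and this clearing was chosen after seeing the data.

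**Figure D3:**
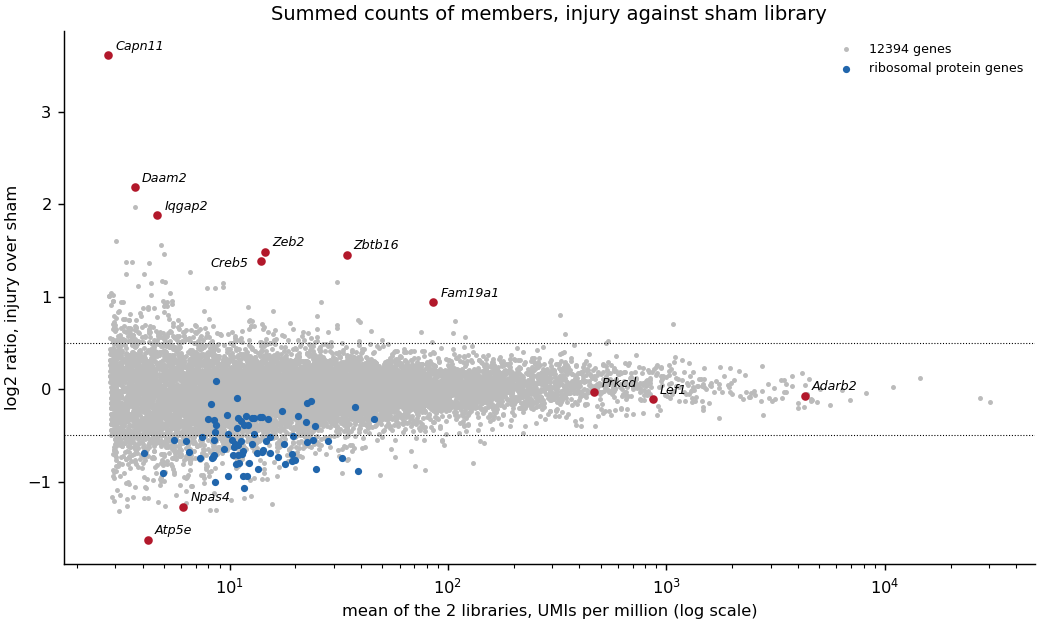
Log2 ratio of injury over sham for counts summed over members (vertical axis) against the mean CPM of the 2 libraries (log axis), with grey points for 12394 genes, blue points for ribosomal protein genes and red points for named genes including Prkcd, which the rule used. Dotted lines mark the fold of 0.5 in each direction. Capn11 stands alone at 3.61, while nearly all ribosomal protein genes lie under 0.

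Capn11, a calpain protease gene, was the gene most strongly higher in injury members. It had 7 UMIs in 7 sham members and 95 UMIs in 86 injury members, with at most 3 UMIs in any member, and its log2 ratio was 3.61 (2.52 to 4.97). The UMIs were thus spread thinly over members, with 1 per sham member that had any. Among the cleared members, 2 and 39 UMIs were left, at 4.33 (2.38 to 7.43). The ratio was 2.15 in C6-Tspear neighbours (20 and 99 UMIs) and 1.68 in Adamts9-Crybg1 neighbours (4 and 16 UMIs). Injury oligodendrocytes, with 5.24 CPM, were as high as injury members, with 5.15 CPM, and sham oligodendrocytes stood at 0.987 CPM.

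Transcription factor genes Zbtb16 and Creb5 were higher over many members. Zbtb16, a zinc finger gene, had 305 UMIs in 190 sham members and 927 UMIs in 375 injury members, a log2 ratio of 1.46 (1.27 to 1.65). In the cleared members it was 1.42 (1.10 to 1.75). Creb5, a cyclic AMP response element binding gene, had 129 and 373 UMIs in 90 and 193 members, a log2 ratio of 1.38 (1.09 to 1.68), and 2.08 (1.61 to 2.58) in the cleared members. Both were also higher in the neighbours, Zbtb16 at 1.19 and 1.16 and Creb5 at 1.14 and 2.01 in C6-Tspear and Adamts9-Crybg1 neighbours, and in other glutamatergic nuclei, where Zbtb16 stood at 19.8 and 50.2 CPM and Creb5 at 12.2 and 33.4 CPM. These genes are abundant in oligodendrocytes too, where Zbtb16 stood at 177 and 422 CPM and Creb5 at 459 and 543 CPM. Entpd1, a surface ATP-degrading enzyme gene, was seen in fewer members, with 31 and 89 UMIs in 28 and 67 members, and 11 and 28 UMIs in the cleared ones. Of its UMIs, 41.9% in sham and 29.2% in injury lay in 10 members, and astrocytes had 50.6 and 49.8 CPM of it.

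Other high ratios came from few members. Iqgap2, a scaffold gene of the actin cytoskeleton, stood at 1.88 (1.33 to 2.48), from 33 and 135 UMIs, with 61.5% of its injury UMIs in 10 members and 25 in 1 of them. Gm49678, a long noncoding gene, had 109 injury UMIs of which 72.5% lay in 10 members. Glis3, a transcription factor gene that is also expressed by astrocytes here (268 and 501 CPM), had 33 and 95 UMIs, 81.1% of the latter in 10 members, and it stood at 7 and 6 UMIs in the cleared members, a log2 ratio of -0.18 (-2.03 to 1.62). Hpse2, a heparanase family gene, and Kcnh1, an ether-a-go-go potassium channel gene, had log2 ratios of 1.56 and 1.47, with 59.0% and 43.7% of injury UMIs in 10 members. Unlike Glis3, the other 4 genes were higher in injury among the cleared members too, with Iqgap2 at 1.66 (14 and 43 UMIs), Gm49678 at 3.29 (1.24 to 6.44, from 2 and 19 UMIs), Hpse2 at 2.39 (12 and 61 UMIs) and Kcnh1 at 1.15 (13 and 28 UMIs). This clearing went by glial and vessel UMIs and by depth, so it cannot show whether UMIs came from other neurons. In other glutamatergic nuclei, Iqgap2 stood at 13.2 and 43.8 CPM and Gm49678 at 13.1 and 30.9 CPM. Hpse2 stood there at 11.2 and 14.02 CPM and Kcnh1 at 19.9 and 33.9 CPM. All 4 were also higher in injury in Adamts9-Crybg1 neighbours, Gm49678 most, at 3.94 (12 and 230 UMIs). The part of other neurons in these ratios was not tested.

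Genes abundant in glia were the remaining ones of the 12 highest. Daam2, a Wnt pathway formin gene, had 22 and 111 UMIs, a log2 ratio of 2.19, and stood at 452 and 688 CPM in oligodendrocytes. Htra1, a secreted protease gene of astrocytes, had 25 and 84 UMIs (1.60), and Zeb2, a zinc finger gene of oligodendrocytes, had 127 and 395 UMIs (1.49). Zeb2 was also higher in injury in other glutamatergic nuclei, at 22.9 and 80.6 CPM. Its log2 ratio was 1.39 in C6-Tspear and 2.83 in Adamts9-Crybg1 neighbours. In members, 41.3% of its injury UMIs lay in 10 nuclei. Among cleared members, Daam2 had 1 and 13 UMIs, Htra1 6 and 25 and Zeb2 9 and 40, so each remained higher in the injury library at lower counts.

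The 12 lowest ratios were of scarce transcripts, with at most 8 UMIs in any member. Atp5e, a subunit of the mitochondrial ATP synthase, had 106 UMIs in 96 sham members and 38 UMIs in 36 injury members, a log2 ratio of -1.63 (-2.20 to -1.08). It was also lower in C6-Tspear neighbours, at -0.87, and in Adamts9-Crybg1 neighbours, at -1.04. Timm10, a mitochondrial import chaperone gene, had 69 and 33 UMIs (-1.21) and was at -0.13 in C6-Tspear neighbours. Tmem258 and Rnasek, small membrane protein genes, stood at -1.31 and -1.26, and Rasl11a, a small GTPase gene, at -1.23.

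Noncoding genes were among these lowest ratios too. Gt(ROSA)26Sor, the transcript of the ubiquitously active Rosa26 locus, had 205 UMIs in 180 sham members and 92 in 85 injury members, a log2 ratio of -1.30 (-1.68 to -0.94), and it overlaps Thumpd3 on the other strand. Gm26879, which overlaps Rcor3 and Traf5 on the other strand, stood at -1.31 (-1.69 to -0.93) and at -1.12 in C6-Tspear neighbours. 8030451A03Rik stood at -1.20 (235 and 113 UMIs) and was at 0.17 (-0.13 to 0.46) in C6-Tspear neighbours and at -1.48 in Adamts9-Crybg1 neighbours. Krt10, Gm1673 and AC121821.1 stood at -1.26, -1.22 and -1.25, and Npas4, an early gene described with its list, at -1.27. In the cleared members the 12 ratios lay between -1.76 and -1.03, many of them from few UMIs, such as 32 and 11 for Timm10.

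Ribosomal protein genes were lower in injury members almost throughout. Of the 47 large-subunit genes, 46 were lower, 31 of them past the fold, and the median log2 ratio was -0.59. Of the 32 small-subunit genes, all 32 were lower, 19 past the fold, with a median of -0.55. These stand against a background of 4.88% of genes past the fold in that direction and a median of -0.03.

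Rps12 showed the size of the difference at a well-counted gene, with 557 UMIs in sham and 419 in injury members and a log2 ratio of -0.56 (-0.75 to -0.37). Rpl6 had 850 and 751 (-0.33), and Rpl15 665 and 647 (-0.19). Rps21 was the lowest small-subunit gene, at -1.07, and Rpl32 (190 and 105 UMIs) the lowest of the large subunit, at -1.004. Rps14 was the highest of the small subunit at -0.23, and Rpl4, the only one of the 79 not lower, was at 0.09 (-0.25 to 0.42). Neighbours showed it too, with medians of the large and small subunit genes of -0.47 and -0.43 in C6-Tspear neighbours and -0.52 and -0.56 in Adamts9-Crybg1 neighbours. Ribosomal protein genes have processed pseudogenes, and how the counting treated reads shared with them is not given in the sources used here.

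Translation factors, as a list, stood nearer to the background than ribosomal proteins. Their median was -0.07 over 34 genes, 12 higher and 22 lower, against 6872 lower of all 12394 genes. Eif1, a start codon selection factor gene, was the lowest at -0.63 and Eef1d, an elongation factor subunit gene, the highest at 0.26 (-0.01 to 0.53). The genes with most UMIs, Eif4g3 and Eif5b, were at 0.04 and -0.09.

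**Figure D4:**
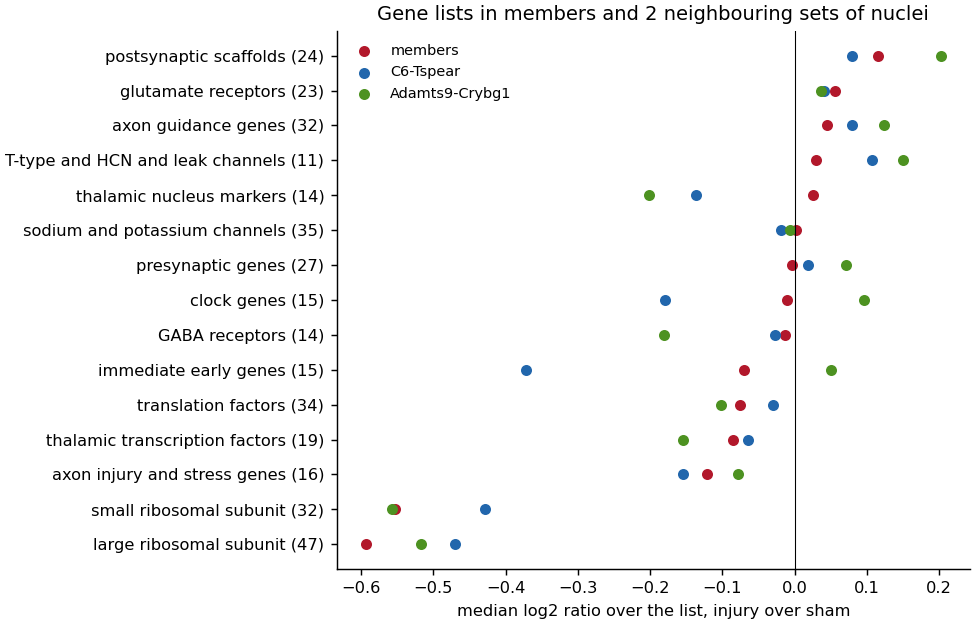
Median log2 ratio of injury over sham (horizontal axis) for 15 gene lists, with the number of genes described in members in parentheses, in members (red), C6-Tspear neighbours (blue) and Adamts9-Crybg1 neighbours (green). The 2 ribosomal lists lie between -0.59 and -0.43 in all 3 sets, and the immediate early genes part members at -0.07 from C6-Tspear neighbours at -0.37. In the cleared members and after thinning, over fewer genes, the early gene median was lower than in all members. The median of the neighbours was not computed in those settings.

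Immediate early genes, which neurons transcribe within minutes of activity, had 1 gene past the fold in members, Npas4. Of 21 genes, 15 had at least 50 UMIs, 5 higher and 10 lower in injury, with a median of -0.07, against 6872 lower and 4.88% past the fold in that direction among all 12394 genes. The median was -0.33 over 11 genes in the cleared members and -0.37 over 5 after thinning to 5000 UMIs. Npas4, an activity-dependent transcription factor gene, had 144 UMIs in 131 sham members and 66 UMIs in 61 injury members, a log2 ratio of -1.27 (-1.72 to -0.84), and was the only 1 of the 15 past the fold. Dusp1, a phosphatase gene of MAP kinases, had 204 and 172 UMIs (-0.39, interval -0.70 to -0.09), and was at -0.68 (-1.15 to -0.21) in the cleared members. Nr4a1, an orphan nuclear receptor gene, lay the other way with 376 and 529 UMIs (0.34, interval 0.15 to 0.54). In the cleared members its interval included 0, at 0.16 (-0.13 to 0.45).

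Fos and Egr1, the usual markers of recent activity, were scarce in these neurons in both libraries. Fos had 37 UMIs in sham and 32 in injury members, a log2 ratio of -0.36 (-1.09 to 0.36) that was -0.95 (-2.50 to 0.45) from 14 and 7 UMIs in the cleared members, and Egr1 had 73 and 64 UMIs (-0.34, interval -0.85 to 0.17), or -0.45 (-1.31 to 0.39) in the cleared members. In C6-Tspear neighbours the same genes had 122 and 27 UMIs (-2.33, interval -2.99 to -1.72) and 101 and 43 UMIs (-1.39, interval -1.94 to -0.86), intervals that do not overlap those of all members, although for both genes the interval in the cleared members does. The neighbours themselves were not cleared. For Fos, sham C6-Tspear neighbours stood at 5.73 CPM and sham members at 2.23 CPM, while the injury values were 1.14 and 1.74 CPM. Whether the 2 sets differ beyond the variation among mice could not be tested with 1 library a group.

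The remaining early genes held intervals that include 0, other than Homer1. Jun, Jund and Junb, partners of Fos, were at -0.01, -0.07 and -0.15, and Nr4a2 and Nr4a3 at -0.05 and 0.18. Ier2 was at 0.11 and Btg2, an antiproliferative gene, at 0.13, against -0.91 for Btg2 in C6-Tspear neighbours. Bdnf, a neurotrophin gene, was at -0.22 and in the cleared members at -0.56 (-1.04 to -0.09), Nptx2, a neuronal pentraxin gene, at -0.27 and Homer1, a synaptic scaffold gene, at 0.12. Fosb, Fosl2, Egr2, Egr3, Egr4 and Arc had too few UMIs to be described.

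**Figure D5:**
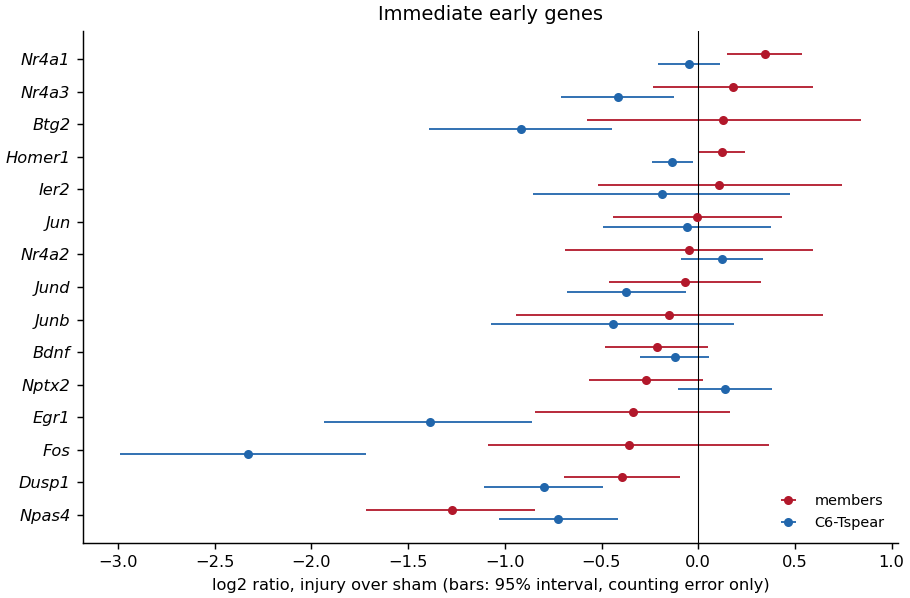
Log2 ratio of injury over sham (horizontal axis) for 15 immediate early genes in members (red) and C6-Tspear neighbours (blue), with bars for exact 95% intervals of counting error. Npas4 lies left of 0 in both sets, and Fos and Egr1 lie far left only for the blue points, at -2.33 and -1.39.

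Clock genes, which time daily rhythms of transcription, had a median of -0.01 over 15 genes, 6 higher and 9 lower. Of all 12394 genes, 6872 were lower. Of the activators, Npas2 was at 0.23 (0.17 to 0.29), Arntl at 0.19 (0.11 to 0.27) and Clock at 0.04 (-0.04 to 0.12). Of the genes that the activators drive, Ciart was the only one past the fold, at -0.67 (228 and 159 UMIs), against 4.88% of all genes in that direction. Nr1d1 was at -0.45, Bhlhe40 at -0.40, Dbp at -0.17, Per3 at -0.14, Nr1d2 and Cry1 at -0.11 each, and Tef and Bhlhe41 at -0.01 each. Per1, Cry2 and Per2 lay higher, at 0.20, 0.19 and 0.10. The hour of collection of each pool is not given in the sources used here, and time of day and injury cannot be told apart.

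Genes of the response to axon damage leaned lower in injury members. Of 29 listed genes, 16 had at least 50 UMIs, and 14 of them were lower in injury members, with a median of -0.12, against 6872 lower of all 12394 genes. The medians in C6-Tspear and Adamts9-Crybg1 neighbours were -0.15 and -0.08. Sox11, a growth-associated transcription factor gene, had 641 and 450 UMIs (-0.66, interval -0.84 to -0.48), and Atf4, a stress response factor gene, 147 and 107 UMIs (-0.61, interval -0.98 to -0.24). Gap43 and Klf7, genes of axon growth, were at -0.08 and -0.11, and Stat3, the highest, was at 0.13 (-0.05 to 0.31).

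Channels of burst and tonic firing were mostly at similar levels in the libraries. Cacna1g, the main T-type calcium channel gene of relay neurons, stood at 0.10 (0.03 to 0.17), from 2919 and 3468 UMIs. Hcn3 was the single gene of the 11 described past the fold, with 94 and 62 UMIs (-0.75, interval -1.24 to -0.27), against 4.88% of all genes in that direction. Cacna1i was the highest at 0.29.

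Of 35 sodium and potassium channel genes, 18 were higher and 17 lower, against 5522 higher of all 12394 genes. Their median was 0.00, with Kcnh1 alone past the fold, against 2.23% of all genes in that direction. Kcnip4, an auxiliary subunit of A-type potassium channels, and Kcnd2, its pore-forming partner, were at -0.10 and -0.20. Scn4b was the lowest at -0.33 (-0.72 to 0.06).

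Lists of synaptic genes had small median ratios, although single genes in some lists were past the fold. Postsynaptic scaffold genes were higher in 20 of 24 cases, against 5522 of all 12394 genes. Past the fold lay 1 gene in each direction, against 2.23% of all genes higher and 4.88% lower. The median was 0.12, also higher than 0 in C6-Tspear neighbours at 0.08 and in Adamts9-Crybg1 neighbours at 0.20. Dlgap2, a binding partner of PSD-95, led with 318 and 789 UMIs (1.16, interval 0.97 to 1.35), but 48.4% of its injury UMIs lay in 10 members. Dlgap1, its more abundant relative in these sums, was at 0.20, Nlgn1, a neuroligin gene, at 0.07, and Lrrtm2, a postsynaptic adhesion gene, was the lowest at -0.58.

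Glutamate receptor genes had a median of 0.06 over 23 genes. Grik4, a kainate receptor subunit gene, was past the fold with 1165 UMIs in 513 sham members and 1840 UMIs in 614 injury members (0.51, interval 0.40 to 0.62), and was at 0.49 and 0.74 in the neighbours. Grik1 was the lowest at -0.26, and Grm7, a metabotropic receptor gene, was at -0.03. GABA receptor genes had a median of -0.01 over 14 genes, between Gabra4 at -0.23 and Gabbr2, a GABA-B receptor gene, at 0.31, with Gabrb1 at -0.13. All 3 of these genes lay on the same side of 0 in both neighbours.

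Presynaptic genes had a median of 0.00 over 27 genes, with Vamp2, a vesicle fusion gene, at -0.65 (381 and 270 UMIs) and Cplx2, a complexin gene, at 0.88 (47 and 96 UMIs) as the extremes. Nrxn3, a neurexin gene, was at -0.15. Axon guidance genes had a median of 0.04 over 32 genes, 21 higher and 11 lower, against 5522 higher of all 12394 genes. Past the fold were Sema3a at 1.06 (22 and 51 UMIs, 70.6% of the latter in 10 members), Slit1 at 0.74 (153 and 283 UMIs) and Ephb1 at 0.53, against 2.23% of all genes in that direction. Robo1, a Slit receptor gene, was at -0.20, Unc5c, a netrin receptor gene, at 0.01 and Efnb3, the lowest, at -0.25.

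Lists of identity genes had median ratios near 0. The 19 thalamic transcription factor genes described had a median of -0.09, with none past the fold, from Nr2f1 at -0.36 to Esrrg at 0.24, and with Rora and Zfhx3 both at 0.15. The 14 thalamic nucleus markers had a median of 0.03. Past the fold were Cck, a neuropeptide gene, at -0.61 (466 and 338 UMIs) and Pvalb, a calcium buffer gene, at 0.85 (37 and 74 UMIs), against 4.88% of all genes lower and 2.23% higher. Pvalb is also among the GABAergic and reticular markers described below. Synpo2 was at 0.08. Calbindin gene Calb1 and the calcium-binding gene Necab1 were at 0.05 and 0.00.

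Of the variable genes, Fam19a1, which encodes a secreted neuropeptide-like protein, differed most between the libraries. Its log2 ratio, from 973 UMIs in 267 sham members and 2069 UMIs in 347 injury members, was 0.94 (0.83 to 1.05). It was at 0.07 in C6-Tspear neighbours and at 1.23 in Adamts9-Crybg1 neighbours, and 31.1% of its injury UMIs lay in 10 members. Dab1, an adaptor gene of reelin signalling, was at 0.41, and Nwd2 and Erbb4, a neuregulin receptor gene, at 0.33 and 0.31. Trpm3, a cation channel gene, Htr1f and Gulp1 were at 0.24, 0.27 and 0.21, Gm29478 at -0.22, and Kctd8, a GABA-B receptor auxiliary gene, and Adcy2, an adenylyl cyclase gene, at -0.03 each.

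Markers of other cell types differed from list to list. The 5 GABAergic and reticular markers that the rule did not use summed to 73 UMIs in sham and 149 in injury members (0.88, interval 0.47 to 1.31), mostly through Pvalb and through Meis2, a homeobox gene, with 13 and 51 UMIs. The 4 markers of oligodendrocyte precursors summed to 5 and 18 UMIs (1.70, interval 0.22 to 3.48). The part of these markers in the results was not tested. Of 9 vessel markers, Tek gave 373 of 497 sham and 430 of 584 injury UMIs, while the defining genes Cldn5 and Cdh5 had 1 or 2 UMIs. Vtn and Rgs5, genes of mural cells, were at 1 UMI each in sham and at 17 and 9 in injury members. Flt1 had 37 UMIs in sham and 24 in injury members, and Pecam1 20 and 23. P2ry12 gave 1129 of 1679 sham and 1214 of 1951 injury UMIs of the 9 microglia markers. Csf1r had 6 and 21, C1qa 6 and 8, C1qb 5 and 5, C1qc 1 and 5, Ctss 3 and 7 and Tmem119 0 and 1. Habenula markers summed to 72 and 95 UMIs. Of 7 cortex and hippocampus markers, Cux2 and Prox1 gave nearly all UMIs, and Neurod6 had 2 in sham and 13 in injury members.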

How the data were processed

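The authors sorted nuclei from pooled thalami, built 10x Genomics 3′ libraries (v.3.1) and counted UMIs per gene and barcode. The submitters' processing notes name bcl2fastq, Cell Ranger 6.0.2 and Seurat 4.0 and the build GRCm38 (mm10). The annotation release, intron counting and strand use are not given in the sources used here. The deposited tables hold raw counts of UMIs for 32285 gene rows, of which 32158 matched a symbol by Ensembl ID, and no author comparison was used. No values were normalized by the authors in these files.

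Nuclei with 200 to 7500 genes and at most 2% mitochondrial UMIs were kept, 16373 of 16390 sham and 21777 of 21828 injury barcodes. No doublet caller was run and doublets were kept. Members and gene lists were chosen with earlier results of these data known. UMIs were summed over members per library and scaled to 1000000 UMIs (CPM). Shares have exact binomial (Clopper-Pearson) intervals, and log2 ratios exact conditional binomial intervals, at 95%. They cover counting error only, and no test was run with 1 library a group. Genes were described from 100 UMIs over both libraries, or 50 in lists. On counts simulated with counting error alone at the members' summed depths, the intervals held the set value in 95.3% of 12437 genes. Variation among nuclei was not simulated, so this checks the calculation and not the width needed for these data. Variation among members is variance beyond the counting expectation over the squared mean.

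Named genes are the 12 highest and 12 lowest ratios, the 15 highest and 8 lowest against other glutamatergic nuclei, the 12 most variable, each list's extremes and its 2 genes with most UMIs, all early and clock genes described, the genes of the rule and relay markers. Some genes that this rule names are not reported here. Atf4, Slit1, Ephb1, Calb1, Necab1 and glial marker genes were named after their values were seen. Alternatives were a marker sum of at least 3, Prkcd not required or at least 3, members with fewer than 2 UMIs of each glial and vessel list (some genes, such as Mbp, not counted) and outside the deepest 10% of nuclei, thinning to 5000 UMIs, mitochondrial UMIs of at most 0.5%, TMM (edgeR 4.0.16) and median-of-ratios (DESeq2 1.42.0) scaling, the mean CPM of single nuclei, and minimums of 300 and 20 UMIs. Positions are those of GENCODE M21 and promoters those of RefSeq. Python 3.11.15, numpy 2.4.6, scipy 1.17.1 and R 4.3.3 were used.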

Additional observations from a re-analysis of the deposited data

Results flagged for a closer look

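Of 149 named genes set beside the 2 neighbours, 9 had an interval of the log2 ratio of injury over sham wholly on 1 side of 0 in the members and wholly on the other side in a neighbour. None of these differences was tested, since each set had 1 library a group, and the intervals cover counting error only.

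Against C6-Tspear neighbours these were Il1rapl2, at a log2 ratio of -0.37 in members and 0.08 (0.01 to 0.14) in the neighbours, and Homer1, at 0.12 and -0.13 (-0.24 to -0.03). The Homer1 interval included 0 in the cleared members, at 0.09 (-0.09 to 0.28), and in members with at least 2 Prkcd UMIs, at 0.11 (-0.01 to 0.23). Members with exactly 1 Prkcd UMI held 32.3% of the sham and 12.4% of the injury UMIs of Il1rapl2, and members with at least 2 Prkcd UMIs had 57.5 and 57.1 CPM of it.

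Against Adamts9-Crybg1 neighbours, Nrxn3 was at -0.15 in members and 0.36 (0.32 to 0.40) in 229 sham and 261 injury neighbours. Erbb4 was at 0.31 and -0.20 (-0.35 to -0.06), and Trpm3 at 0.24 and -0.17 (-0.26 to -0.08), both among the 12 most variable genes in members. Adarb2 was at -0.069 and 0.065 (0.03 to 0.10), and Tcf7l2 at 0.068 and -0.16 (-0.24 to -0.07). Slc17a7 was at -0.28 and 0.46 (0.14 to 0.79) and Abhd12b at -0.11 and 0.89 (0.48 to 1.31), and the rule used both of these genes. The cortex markers Neurod6 and Neurod2 had 0 UMIs each in sham Adamts9-Crybg1 neighbours, and 26 and 17 UMIs in injury ones. Prox1 alone of the cortex and hippocampus list was lower there, at -0.29. Whether the make-up of these neighbours differed between the libraries, and its part in these ratios, was not tested.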

How the results depend on the processing

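Shares followed the rule. Of all kept nuclei, in sham and injury, members were 6.54% and 4.92% with a marker sum of at least 3, 8.30% and 6.41% with Prkcd not required, 5.63% and 4.59% with Prkcd at least 3, 5.03% and 3.89% thinned to 5000 UMIs, 4.96% and 4.202% without nuclei with at least 2 UMIs of a glial or vessel list (some genes, such as Mbp, not counted) or in the top 10% by UMIs, and 5.74% and 4.75% when the glial and vessel genes that neurons carry, such as P2ry12, Cx3cr1 and Tek, were left out of that clearing, an alternative chosen after seeing the data. Of glutamatergic nuclei they were, in the same order, 12.3% and 11.2%, 15.7% and 14.6%, 10.6% and 10.5%, 10.1% and 8.97%, 9.48% and 9.23%, and 10.4% and 9.84%. The injury share was the lower one in each pair. Genes past the fold were 81 higher and 251 lower from 300 UMIs, 1004 and 1329 from 20 UMIs, and 202 and 238 after thinning, when 6695 genes were described. The alternative counts not listed here, and the 202, were within 1.5 times the main ones.

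Of 180 list medians under alternatives, 168 stayed within 0.1 of the value in the report. Immediate early genes were at -0.40 over 8 genes in the first clearing, -0.33 over 11 in the second, -0.37 over 5 after thinning and -0.22 over 5 from 300 UMIs, each over fewer genes than the main 15. Small ribosomal subunit genes were at -0.69 and -0.66 in the clearings and -0.42 after thinning. In the first clearing (457 and 432 members), postsynaptic scaffolds were at 0.23, T-type, HCN and leak channels at 0.14, thalamic transcription factors at 0.033 and nucleus markers at -0.10, these last 2 on the other side of 0 than in all members, and thinning put GABA receptors at -0.11. The cause was not tested. Of 201 ratios of the 24 highest and lowest genes, 196 lay within the main interval and none reversed, while Glis3, under the minimum of UMIs, was at -0.18 in the second clearing. Of the 24 genes, 20 in the first clearing, 17 in the second and 22 after thinning had too few UMIs for a ratio. No paired analysis was possible because there was 1 library a group.

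Depth limits scarce genes most. At 100 UMIs over both libraries, an interval spans 1.19 on the log2 scale, and mice within a pool cannot be told apart.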
